A study of Mus musculus with 4 samples.

Results

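Ccl3, Ccl4, Ccl6 and Ccl9 are CC chemokine genes that lie beside Ccl5 on mouse chromosome 11, and their transcripts were followed in the immune cells of the liver. They were taken by symbol, as chemokine genes neighbouring Ccl5, and are 4 of the 32285 genes in the count matrices. The study addressed how miR-146a and CCL5 act in hepatocellular carcinoma. CD45+ cells were sorted by FACS from liver suspensions with DAPI and a FITC-labelled antibody to CD45, and mRNA was counted with the 10x Genomics 5′ v2 single-cell assay in 4 libraries. Each group was 1 library from female C57BL/6 mice, and the number of mice behind a library is not stated in the sources used here. The young WT group was about 8 weeks old and untreated, and its diet is not stated. The WT, miR-146a-/- and DKO groups were 36 weeks old and shared a DEN-CDHFD treatment, in which diethylnitrosamine (DEN), a liver carcinogen, was given at 25 mg/kg by i.p. injection on day 14 and a choline-deficient diet with 60% fat (CDHFD) was fed from weaning on day 21. The miR-146a-/- and DKO groups lacked miR-146a, and the DKO group also lacked Ccl5. Young WT and treated WT therefore differed in age and treatment together, and their effects cannot be told apart. The strain of origin of the DNA flanking either deletion is not given in the sources used here.

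The matrices held 10985 cells for young WT, 9120 for WT, 8393 for miR-146a-/- and 10623 for DKO, with 90756272, 103165826, 88706063 and 103147246 unique molecular identifiers (UMIs, each standing for 1 captured transcript). After filtering on the number of genes and mitochondrial UMIs, 10283, 8329, 7824 and 9850 cells remained, with a median of 6782, 8210, 7910 and 7558 UMIs. Each pair of libraries shared between 109 and 150 cell barcodes. Cells were placed into 24 classes by UMIs of lineage markers, and 16 classes had at least 50 cells in each library. NK cells and ILC1 had at least 4 UMIs of Ncr1 and Klrb1c and fewer than 5 of Cd3d, Cd3e and Cd3g, and were split by Eomes and Itga2 against Itga1 and Cd200r1. T cells had at least 5 UMIs of those Cd3 genes. pDC had at least 10 UMIs of Siglech, Ccr9, Klk1 and Cox6a2. Phagocytes had at least 10 of Lyz2, Csf1r and Cst3, and were classical monocytes where Ly6c2, Ccr2, F13a1 and Chil3 led, patrolling monocytes where Ace, Spn, Treml4 and Ear2 led and cDC2 where Cd209a, Clec10a, Mgl2 and Itgax led. Levels are in CPM, the UMIs of a gene per 1000000 UMIs of a class in a library. There were no replicates, and the 95% intervals, exact Poisson for levels and Clopper-Pearson for shares of cells, cover counting error only.

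CCL3 and CCL4 are chemokines that activated lymphocytes and myeloid cells secrete, and they draw T cells, NK cells and monocytes. CCL6 and CCL9 are rodent chemokines made mainly by myeloid cells, and they signal through CCR1. In the liver, chemokines of this family are known for recruiting leukocytes during inflammation and injury.

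Ccl5, the chemokine gene deleted in DKO mice, was examined first as a check of the labels. Over the kept cells it stood at 6174 CPM for young WT, 12544 for WT, 12496 for miR-146a-/- and 65.4 for DKO. The remaining DKO signal was 6324 UMIs, against 992960 for miR-146a-/-. In NK cells the corresponding levels were 19088, 12586, 18681 and 102, so the DKO library went with its label in this respect. Expression of miR-146a itself was not analysed here, and nothing in these counts checks that deletion.

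The cell classes were compared with markers that no gate had used. Bst2, a surface marker of plasmacytoid dendritic cells (pDC), lay at 4205, 4128, 4180.1 and 4160.0 CPM in pDC of young WT, WT, miR-146a-/- and DKO and at no more than 80.7 in NK cells. Sirpa, an inhibitory receptor of myeloid cells, lay at 423, 417, 370.0 and 355 in classical monocytes and at no more than 3.45 in NK cells. Fcer1g, a signalling adaptor shared by NK and myeloid cells, ranged from 2188 to 2797 in NK cells and from 17.6 to 57.9 in B cells.

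On GRCm38, all 4 genes lie in the interval that begins at Ccl5 (ENSMUSG00000035042, chr11:83525778-83530518, minus strand). Ccl9 (ENSMUSG00000019122, chr11:83572919-83578636) and Ccl6 (ENSMUSG00000018927, chr11:83587882-83593087) are on the minus strand, with start sites 48.1 and 62.6 kb from that of Ccl5. Ccl3 (ENSMUSG00000000982, chr11:83647844-83649355, minus strand) and Ccl4 (ENSMUSG00000018930, chr11:83662584-83664683, plus strand) start 119 and 132 kb away. Each is annotated as protein-coding. The noncoding gene E230016K23Rik (chr11:83582056-83623693, plus strand) overlaps Ccl6 on the opposite strand. Whether counting used strand is not given in the sources used here, so reads from the overlap cannot be told apart. The noncoding gene held 93, 152, 144 and 169 UMIs in young WT, WT, miR-146a-/- and DKO, against 5062, 12203, 11503 and 11352 for Ccl6.

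**Figure D1:**
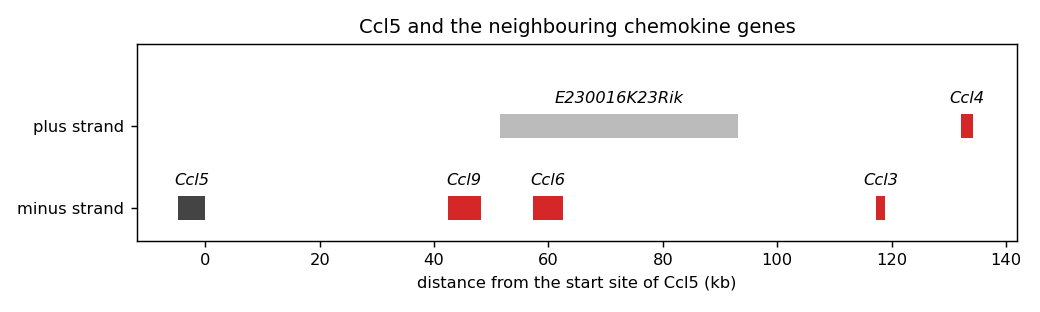
Map of Ccl5 (dark grey), the 4 chemokine genes (red) and the overlapping noncoding gene (light grey) by strand, with the distance in kb from the start site of Ccl5 on the horizontal axis and other genes of the interval not drawn. Ccl9 and Ccl6 start 48.1 and 62.6 kb from Ccl5, and Ccl3 and Ccl4 start 119 and 132 kb away.

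Promoters are shown because the genes fell into pairs by cell class, and 3 of the 4 genes had an entry in the RefSeq promoter table for GRCm38.p6. Ccl4 had none. Each window runs from 250 bases before to 50 bases after the start site on the minus strand and is written 5′ to 3′, at chr11:83578587-83578886 for Ccl9, chr11:83593038-83593337 for Ccl6 and chr11:83649329-83649628 for Ccl3. For Ccl3 the RefSeq start site lies upstream of the gene end given above, and distances within the window are from the RefSeq site. Capitals mark matches to the ETS core GGAAGT, which reads ACTTCC on the printed strand.
Ccl9: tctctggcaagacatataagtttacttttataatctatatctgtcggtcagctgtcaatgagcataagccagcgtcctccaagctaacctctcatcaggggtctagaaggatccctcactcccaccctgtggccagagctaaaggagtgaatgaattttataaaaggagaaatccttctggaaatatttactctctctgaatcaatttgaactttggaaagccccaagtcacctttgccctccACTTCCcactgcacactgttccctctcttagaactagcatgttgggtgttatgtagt
Ccl6: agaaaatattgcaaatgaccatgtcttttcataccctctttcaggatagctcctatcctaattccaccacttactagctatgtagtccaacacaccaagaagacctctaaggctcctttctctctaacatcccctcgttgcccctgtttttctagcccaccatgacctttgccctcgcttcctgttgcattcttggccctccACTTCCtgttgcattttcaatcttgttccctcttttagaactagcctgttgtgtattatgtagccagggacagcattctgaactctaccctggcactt
Ccl3: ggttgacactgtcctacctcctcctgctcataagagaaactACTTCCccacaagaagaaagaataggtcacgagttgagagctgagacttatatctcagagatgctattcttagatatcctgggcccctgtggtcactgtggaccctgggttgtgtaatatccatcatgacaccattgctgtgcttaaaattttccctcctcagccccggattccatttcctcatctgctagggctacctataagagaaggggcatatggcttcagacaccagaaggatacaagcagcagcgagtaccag

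Searched on both strands, GGAAGT matched once in each window, beginning 7 bases before the start site in Ccl9, 48 before it in Ccl6 and 209 before it in Ccl3. The Ccl6 and Ccl9 windows shared a run of 13 bases, gccctccACTTCC, which includes that match. The longest run that Ccl3 shared with either was 8 bases. Of 32851 promoter windows of the same length, 23.8% held GGAAGT. The other motifs searched were GGG, 5 unspecified bases and CC (NF-kB), found in Ccl9 only of the 3 windows and in 50.8% of all windows, TTNCNNAA (C/EBP), found in Ccl9 and Ccl3 and in 40.7%, and TGANTCA (AP-1), found in Ccl9 only of the 3 and in 7.81%. In Ccl9, the NF-kB match overlapped a C/EBP match. These are matches of letters and do not show binding.

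Among the 16 classes, Ccl3 was most abundant in cytotoxic and innate lymphocytes. Averaged over the 4 libraries, the order began with NK cells at 1091 CPM, PD-1+ CD8+ T cells at 649.6, type 1 innate lymphoid cells (ILC1) at 574 and PD-1+ CD4+ T cells at 479. This order did not hold in each library, since NK cells were first in young WT and WT whereas PD-1+ CD4+ T cells, which were lower than NK, ILC1 and PD-1+ CD8+ T cells in those libraries, were first in miR-146a-/- and DKO. B cells had 2.08 for young WT, 2.51 for WT, 11.7 for miR-146a-/- and 2.31 for DKO. Ccl4 was spread over the same lymphocytes and pDC. Its class means were 3067 in NK cells, 2251 in PD-1+ CD8+ T cells, 2221 in PD-1+ CD4+ T cells, 2159 in ILC1 and 2024 in pDC, and each of these neighbours exchanged places between libraries.

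**Figure D2:**
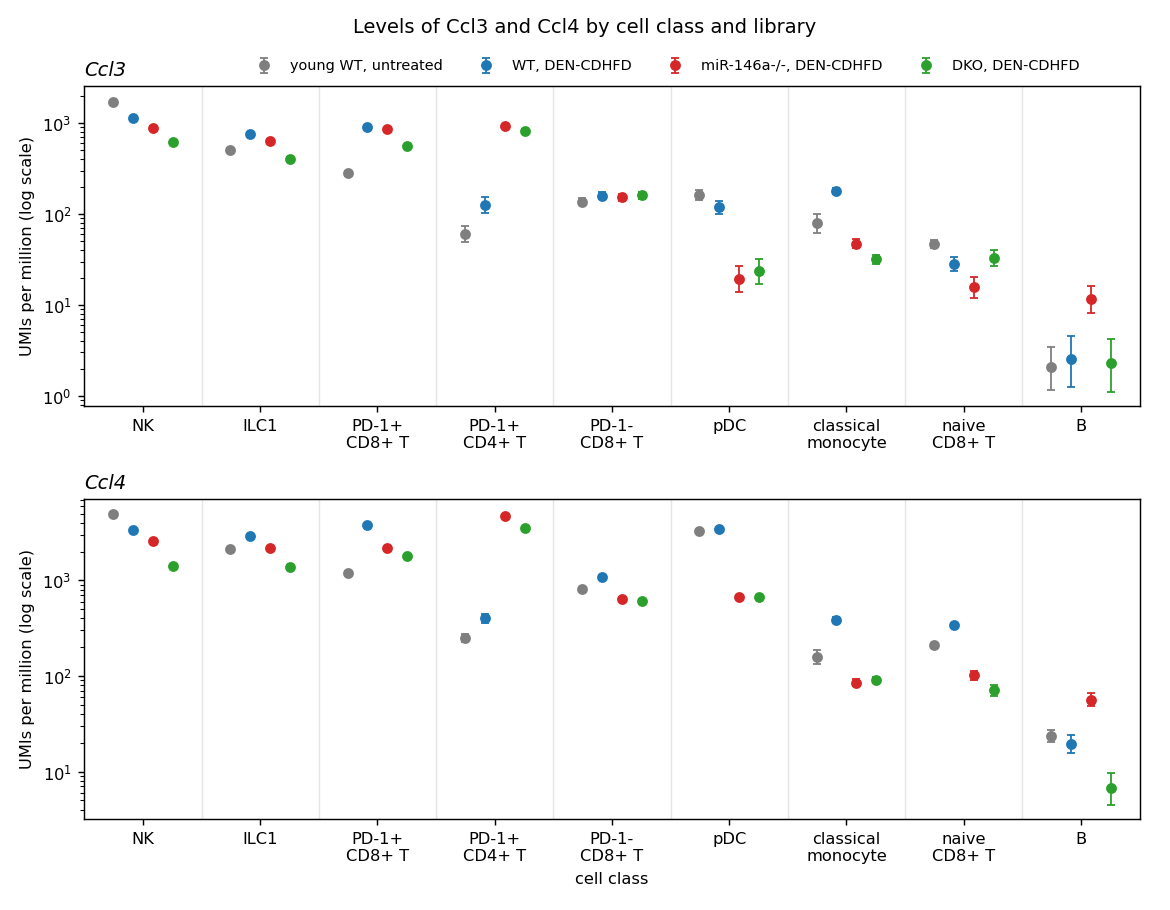
Ccl3 (top) and Ccl4 (bottom) in CPM on a log axis by cell class, with 1 point per library and exact 95% Poisson intervals. Points for PD-1+ CD4+ T cells lie near the top in miR-146a-/- and DKO (Ccl4 4718 and 3514) and far lower in young WT and WT (249 and 403).

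In NK cells, both genes were lower in each successive library. Ccl3 stood at 1715 CPM for young WT (1683 to 1747), 1147 for WT (1119 to 1175), 886 for miR-146a-/- (858 to 915) and 615 for DKO (594 to 636). Ccl4 stood at 4914 (4860.0 to 4969), 3347 (3299 to 3396), 2595 (2547 to 2644) and 1409.7 (1379 to 1441) in the same order. No interval overlapped another for either gene. The log2 ratio of WT to young WT was -0.58 for Ccl3 and -0.55 for Ccl4, that of miR-146a-/- to WT was -0.37 for both, and that of DKO to miR-146a-/- was -0.53 for Ccl3 and -0.88 for Ccl4. Neither gene changed by over 2-fold in any of these comparisons (0 of 2 members tested in each), where 1.00%, 1.73% and 0.143% of all tested genes did. A comparison tested the genes that reached 50 CPM with 20 or more UMIs in either library.

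Shares of NK cells with a transcript followed the same order for Ccl3. After thinning each cell to 2000 UMIs, which left 863 of 868, 577 of 578, 406 of 408 and 563 of 565 cells, Ccl3 was seen in 67.7%, 55.8%, 49.8% and 35.7% of NK cells of young WT, WT, miR-146a-/- and DKO (82.4%, 76.0%, 73.8% and 51.5% without thinning). Ccl4 was seen in 72.7%, 66.9%, 65.8% and 36.2% (84.9%, 79.1%, 83.3% and 50.6% without thinning), so the DKO library stood apart for Ccl4 and the other 3 lay closer together. B cells, taken as a class low in both, gave thinned shares of 0.350%, 0.669%, 0.754% and 0.166% for Ccl3 and 2.71%, 3.51%, 0.503% and 0.993% for Ccl4. Median depth was 6731.5, 8620.5, 9832 and 8708 UMIs in NK cells and 5576, 6503, 6733.5 and 6177 in B cells. Naive CD8+ T cells gave 2.56%, 2.64%, 2.72% and 2.87% for Ccl3 and 12.1%, 14.5%, 13.6% and 8.61% for Ccl4, with a class mean of 182 CPM for Ccl4 against 26.6 in B cells.

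Ccl3 and Ccl4 were often found in the same NK cells. Among thinned NK cells with Ccl3, Ccl4 was also seen in 83.2%, 83.2%, 82.7% and 65.7% in young WT, WT, miR-146a-/- and DKO. Among those without Ccl3, it was seen in 50.5%, 46.3%, 49.0% and 19.9%. DKO was lower on both counts. Ccl3 made up 25.9%, 25.5%, 25.5% and 30.4% of the UMIs of the pair.

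Immediate-early and heat shock genes (Fos, Fosb, Jun, Junb, Egr1, Dusp1, Ier2, Zfp36, Atf3, Nr4a1, Hspa1a and Hspa1b), which tissue digestion is known to induce, moved with the NK comparison of miR-146a-/- with WT. Of the 12 on the list, 11 were tested, 9 were over 2-fold lower in miR-146a-/- and none was over 2-fold higher, with a median log2 ratio of -1.42 against 0.01 over all tested genes. The list summed to 10375, 9558, 3028 and 3361 CPM in young WT, WT, miR-146a-/- and DKO, and Junb was its most abundant gene at 3446, 3377, 1260.5 and 1453. The NF-kB list moved with them, as 4 of its 10 genes (Nfkbia, Nfkbiz, Tnfaip3 and Icam1) were over 2-fold lower and the median was -0.66. Nfkbia, an inhibitor that NF-kB itself induces, stood at 1302, 1416, 460.3 and 542. The part of these genes in the lower Ccl3 and Ccl4 of miR-146a-/- was not tested. Markers of cells outside the sort moved with the comparison of WT with young WT, as 7, 7, 6 and 8 of 11 were detected in NK cells with sums of 339.8, 3.999, 3.30 and 5.44, Hbb-bs leading in young WT at 281. The 5 ILC1 markers, all detected in NK cells of each library and led by Il7r, summed to 46.3, 91.8, 72.2 and 81.6. Neutrophil markers in NK cells summed to 0.629, 0.909, 11.8 and 6.16, with 3, 3, 6 and 7 of 9 detected and S100a9 leading outside WT. The part of these lists in the NK values was not tested. Between miR-146a-/- and DKO, the medians of the immediate-early and NF-kB lists in NK cells were 0.14 and 0.07, and their part was not tested there either.

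ILC1, tissue-resident relatives of NK cells, gave another order between young WT and WT. Ccl3 was at 504 CPM for young WT (480.4 to 529), 753 for WT (729 to 778), 637 for miR-146a-/- (609 to 667) and 399.7 for DKO (381 to 419). Ccl4 was at 2119, 2945, 2188 and 1384. Both genes were thus higher in treated WT than in young WT, with log2 ratios of 0.58 and 0.47, whereas both were lower in NK cells. Between these libraries T cell markers in ILC1 went from 86.7 to 39.9, all 3 detected and Cd3g leading, with 33.1 and 41.5 in miR-146a-/- and DKO. Markers of cells outside the sort summed to 61.8, 8.55, 6.48 and 9.32, with 7, 9, 5 and 9 of 11 detected and Hbb-bs leading in young WT. Their part was not tested. The DKO ratio to miR-146a-/- was -0.67 for Ccl3 and -0.66 for Ccl4. From WT to miR-146a-/- the ratios were -0.24 and -0.43, and there 10 of 11 tested immediate-early and heat shock genes were over 2-fold lower, against 1.83% of all tested genes (median -2.21 against 0.01, sums of 7092, 7487, 2342 and 2928), and their part was not tested.

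CD8+ T cells with at least 1 UMI of Pdcd1, the gene of the inhibitory receptor PD-1, carried more Ccl3 and Ccl4 in each treated library than in young WT. Ccl3 was at 278 CPM for young WT (259.8 to 298), 907 for WT (891 to 924), 856 for miR-146a-/- (840.2 to 873) and 556 for DKO (542 to 571). Ccl4 was at 1208 (1169 to 1248), 3823 (3789 to 3858), 2181 (2155 to 2207) and 1791 (1764 to 1817). Young WT was lowest for both genes, and WT was highest for both. From young WT to WT the log2 ratios were 1.70 (1.60 to 1.81) for Ccl3 and 1.66 (1.61 to 1.71) for Ccl4, so 2 of 2 members tested were over 2-fold higher, where 4.71% of tested genes were past 2-fold in either direction. From WT to miR-146a-/- they were -0.08 and -0.81, and 0 of 2 were past 2-fold, against 1.97% of tested genes. From miR-146a-/- to DKO they were -0.62 and -0.28, again 0 of 2, against 1.07%. Ccl3 was 19.2% of the UMIs of the pair in WT and 28.2% in miR-146a-/-. Ccl5 itself was at 17279, 39327, 36088 and 214 in this class. The immediate-early list had 3 of 9 tested genes over 2-fold lower from young WT to WT and 3 of 9 from WT to miR-146a-/-. Markers of lipid-associated macrophages summed to 35.7, 266, 74.8 and 41.3 CPM, with 3, 4, 4 and 4 of 4 detected and Spp1 leading in the treated libraries at 247, 48.1 and 22.4. Kupffer cell markers summed to 1.34, 16.8, 3.26 and 7.85, with 2, 5, 6 and 6 of 6 detected and Cd5l leading in the treated libraries. Markers of cells outside the sort summed to 8.01, 41.9, 248 and 299, with 5, 10, 10 and 11 of 11 detected, Hba-a1 leading in WT and Hbb-bs in miR-146a-/- and DKO. Lymphoid lists went the other way from young WT to WT, with both NK markers detected and summing to 125, 58.6, 46.2 and 76.2 (Klrb1c or Ncr1 leading) and all 5 ILC1 markers to 395, 185, 190.5 and 163 (Il7r or Cd200r1 leading). The part of these lists in the Ccl3 and Ccl4 values of the class was not tested.

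The widest difference in Ccl3 and Ccl4 among the classes described here was in PD-1+ CD4+ T cells, helper T cells with at least 1 Pdcd1 UMI, a class described after its values were seen. Ccl3 was at 60.6 CPM for young WT (49.2 to 73.9), 126 for WT (103 to 153), 916 for miR-146a-/- (877 to 957) and 813 for DKO (769.7 to 858). Ccl4 was at 249 (225 to 274), 403 (360.0 to 449), 4718 (4629 to 4809) and 3514 (3424 to 3607). In this class, both libraries without miR-146a were thus high and both WT libraries low. The cells numbered 173, 94, 285 and 189. From WT to miR-146a-/- the log2 ratios were 2.85 (2.57 to 3.16) for Ccl3 and 3.55 (3.39 to 3.71) for Ccl4, 2 of 2 members tested over 2-fold higher, where 4.48% of tested genes were past 2-fold in either direction. From young WT to WT they were 1.06 (0.65 to 1.47) and 0.70, 1 of 2 past 2-fold, against 2.05%. The call of each gene changed under other settings. For Ccl3 the ratio was 0.78 with strict lineage removal (any UMI of another lineage's markers removing a cell). It was 0.64 as a mean over cells and 0.56 with PD-1- CD4+ T cells added. For Ccl4 the ratio was 1.84 with gate minimums raised by 1 UMI, 2.66 when gated on thinned cells and 1.18 without the top cell. From miR-146a-/- to DKO the log2 ratios in PD-1+ CD4+ T cells were -0.17 and -0.42, 0 of 2, against 1.87%. In PD-1- CD4+ T cells both genes were highest in miR-146a-/-, at 94.1 CPM for Ccl3 and 419 for Ccl4. Both were over 2-fold higher there than in WT (2 of 2 members tested), where 0.700% of tested genes were over 2-fold higher and 1.16% over 2-fold lower. Both were over 2-fold lower in DKO than in miR-146a-/- (2 of 2 members tested), where 0.221% of tested genes were over 2-fold higher and 0.690% over 2-fold lower. The high DKO values of PD-1+ CD4+ T cells were thus not seen in PD-1- CD4+ T cells.

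Few cells held most of this signal. The 5% of PD-1+ CD4+ T cells with the most Ccl4 held 91.3%, 80.0%, 72.5% and 75.9% of its UMIs in young WT, WT, miR-146a-/- and DKO, and the highest single cell held 190, 87, 1100 and 961. Without the cell of each library with the most UMIs of the gene, an alternative chosen after seeing the data, the log2 ratio of miR-146a-/- to WT was 3.31 for Ccl3 and 3.82 for Ccl4. With PD-1- CD4+ T cells added to the class, also chosen afterwards, it was 3.41 and 3.69. The thinned share of cells with Ccl4 was 8.72%, 14.9%, 47.5% and 35.6% (18.5%, 24.5%, 61.4% and 42.3% without thinning, with 172 of 173, 94 of 94, 284 of 285 and 188 of 189 cells deep enough to thin), against 2.71%, 3.51%, 0.503% and 0.993% in B cells. Median depth was 7029, 7089.5, 6570.0 and 6696 UMIs in PD-1+ CD4+ T cells, against 5576, 6503, 6733.5 and 6177 in B cells. The share in PD-1+ CD4+ T cells was thus above that in B cells in each library. Against the naive CD8+ T cells given above, it was lower in young WT, close in WT and higher in miR-146a-/- and DKO.

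Other genes moved with Ccl3 and Ccl4 in PD-1+ CD4+ T cells. Ccl5 stood at 4293, 8317, 30454 and 113 CPM, and Eomes, a transcription factor of cytotoxic lymphocytes, at 73.0, 99.1, 216 and 152. Cd4 stood at 362, 400.1, 501 and 475, while Cd8a was at no more than 2.48. The gate took cells with at least 1 Cd4 UMI and fewer than 2 UMIs of Cd8a and Cd8b1, so these levels follow in part from it. Of the list of cells outside a CD45 sort, 4, 5, 9 and 8 of 11 genes were detected, with sums of 17.3, 13.6, 2074 and 18.5. The miR-146a-/- sum was mostly Hbb-bs, a globin, at 1524, of which 3408 of 3411 UMIs came from 1 cell. Without that cell Ccl3 was at 921 and Ccl4 at 4729. NK markers summed to 124, 86.7, 65.7 and 118, with Klrb1c or Ncr1 the most abundant, against 1859.8 to 2525 in NK cells. ILC1 markers, all 5 detected and led by Il7r, summed to 340, 382, 218 and 232. Neutrophil markers summed to 1.24, 3.72, 13.4 and 7.39, with 1, 2, 5 and 5 of 9 detected and S100a8 or S100a9 leading. Markers of lipid-associated macrophages summed to 328, 934, 158 and 155, with 3, 4, 4 and 3 of 4 detected and Spp1 leading at 220.2, 832, 128 and 108. Of 5 cytokines released by activated lymphocytes, 4 were tested between miR-146a-/- and WT, and Tnf and Csf1 were over 2-fold lower and none over 2-fold higher, with a median of -1.01. The part of these genes in the Ccl3 and Ccl4 difference was not tested.

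pDC, which are known for interferon secretion, carried Ccl4 in large amounts in both WT libraries. Ccl4 was at 3283 CPM for young WT (3198 to 3370.0), 3466 for WT (3359 to 3576), 676 for miR-146a-/- (640.1 to 712) and 669.6 for DKO (632 to 709). Ccl3 was at 162, 119, 19.3 and 23.7. Both WT libraries were high and both libraries without miR-146a low, the reverse of PD-1+ CD4+ T cells. The log2 ratio of miR-146a-/- to WT was -2.36 (-2.45 to -2.27) for Ccl4 and -2.60 (-3.17 to -2.09) for Ccl3, and DKO differed from miR-146a-/- by -0.01 (-0.13 to 0.10) for Ccl4. For Ccl3 the ratio of DKO to miR-146a-/- was 0.29. It was 1.83, past 2-fold, where any UMI of another lineage's markers removed a cell. The pair was unevenly used, since Ccl3 was 4.70%, 3.31%, 2.78% and 3.41% of its UMIs. Thinned to 2000 UMIs, which left out none of the 143, 87, 144 and 132 pDC, the share with Ccl4 was 63.6%, 66.7%, 27.1% and 25.8% (79.7%, 86.2%, 46.5% and 53.8% without thinning), at median depths of 12067, 12642, 13949 and 13498, against the 2.71%, 3.51%, 0.503% and 0.993% of B cells.

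Ccl6 moved as well in pDC, at 20.3, 71.2, 20.3 and 9.57 CPM in young WT, WT, miR-146a-/- and DKO. The myeloid gene Lyz2 (lysozyme) went with it, at 233, 493, 153 and 63.1, and the 9 neutrophil markers summed to 2.90, 43.1, 10.9 and 10.1 with 2, 5, 5 and 5 detected and S100a9 leading in the 3 treated libraries. Markers of lipid-associated macrophages summed to 18.0, 36.0, 3.47 and 11.8, with 2, 4, 3 and 2 of 4 detected, Cd9 leading outside miR-146a-/- and Spp1 at 0 outside WT. Their part in the Ccl3, Ccl4 and Ccl6 values of pDC was not tested. T cell markers summed to 16.8, 8.79, 3.47 and 5.63 in pDC and NK markers to 1.74, 0.879, 0.992 and 0.563. In pDC, 1 of 3 members tested was past 2-fold from young WT to WT (Ccl6, 1.80), against 0.519% of tested genes, 3 of 3 from WT to miR-146a-/- (Ccl3, Ccl4 and Ccl6), against 1.99%, and 0 of 1 from miR-146a-/- to DKO, against 0.304%. Immediate-early and heat shock genes were lower in the same comparison, 10 of 12 tested being over 2-fold lower in miR-146a-/- than in WT with a median of -1.64, and their part was not tested. The list summed to 9007, 7377, 2885 and 3147 in pDC, and Fos was at 2476, 2148, 579 and 829.5.

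**Figure D3:**
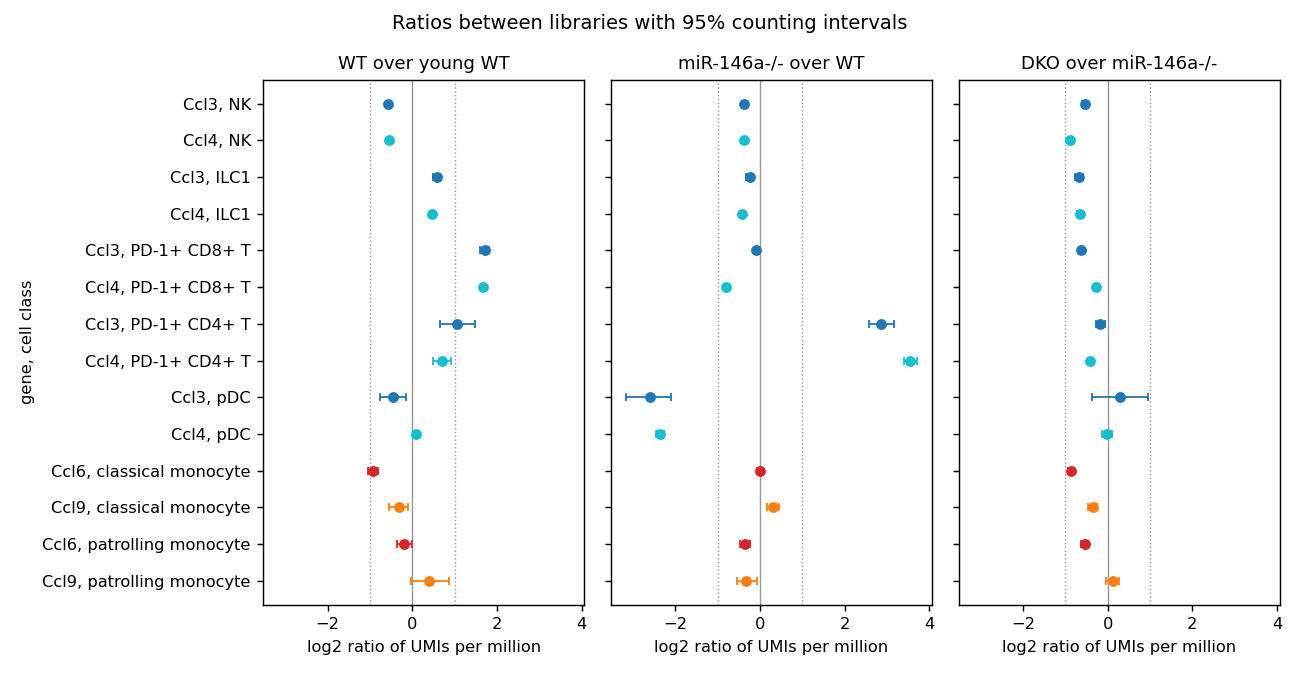
Log2 ratios of CPM between libraries for each gene and cell class, with 1 panel per comparison, 95% counting intervals as bars, solid lines at no change and dotted lines at 2-fold. Plotted ratios of Ccl3 and Ccl4 from WT to miR-146a-/- run from -2.60 in pDC to 3.55 in PD-1+ CD4+ T cells.

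Among the 16 classes with enough cells in each library, Ccl6 and Ccl9 were highest in mononuclear phagocytes. Late neutrophils, with at most 33 cells in a library, had more Ccl6 than classical monocytes in each library, and the few basophils held Ccl6 as well. Averaged over libraries, Ccl6 was at 633 CPM in classical monocytes, 516 in patrolling monocytes and 193 in type 2 conventional dendritic cells (cDC2), followed by 30.8 in cDC1 and 30.4 in pDC. Classical monocytes were above patrolling monocytes beyond counting error in 2 libraries only, whereas patrolling monocytes were above cDC2 in all 4. Ccl9 was highest in classical monocytes in each of the 4 libraries among the 16 classes, with a mean of 216, followed by patrolling monocytes at 113 and cDC2 at 85.1. Patrolling monocytes and cDC2 differed beyond counting error in 2 of the 4 libraries. B cells, chosen as a class that should lack both, had at most 1.60 for Ccl6 and 1.39 for Ccl9. C1q-high macrophages had too few cells in young WT to be compared there, and in WT, miR-146a-/- and DKO they had 742, 422 and 276 of Ccl6 and 239, 211 and 126 of Ccl9.

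**Figure D4:**
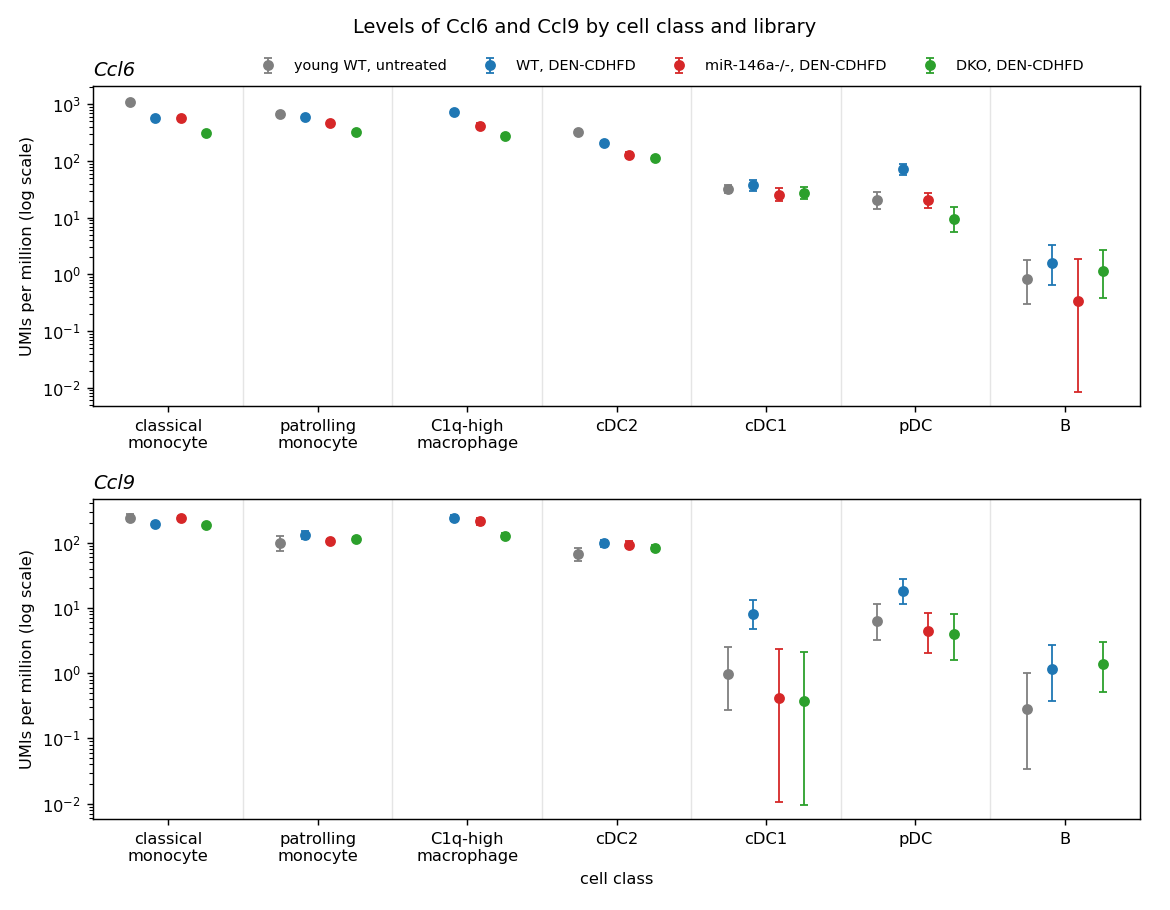
Ccl6 (top) and Ccl9 (bottom) in CPM on a log axis by cell class, 1 point per library with exact 95% Poisson intervals, where values of 0 and C1q-high macrophages of young WT are not drawn. Classical monocytes run from 310.4 to 1084 for Ccl6 and from 187 to 242 for Ccl9.

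In classical monocytes, the blood-derived precursors of macrophages, Ccl6 was at 1084 CPM for young WT (1019 to 1153), 568 for WT (542 to 594), 568 for miR-146a-/- (550.3 to 586) and 310.4 for DKO (299 to 322). Young WT was highest, DKO lowest, and WT and miR-146a-/- did not differ beyond counting error. The log2 ratios were -0.93 (-1.04 to -0.82) from young WT to WT, 0.00 (-0.08 to 0.08) from WT to miR-146a-/- and -0.87 (-0.94 to -0.80) from miR-146a-/- to DKO. Ccl9 was at 242 (212 to 276), 194 (179 to 209.6), 239.9 (228 to 252) and 187 (179 to 196). Its range was narrower, with ratios of -0.32 (-0.54 to -0.10), 0.31 (0.17 to 0.44) and -0.36 (-0.45 to -0.26), and the first of these changed sign when the class was gated on thinned cells. Under that gate the Ccl6 ratio from young WT to WT was -0.46, and with any UMI of another lineage's markers removing a cell it was -1.04, past 2-fold. Thus Ccl6 and Ccl9 differed alike in direction from miR-146a-/- to DKO, and Ccl6 by more. The cells numbered 73, 264, 376 and 536.

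Shares of classical monocytes with Ccl6, after thinning to 2000 UMIs, were 75.3%, 54.2%, 55.2% and 40.2% in young WT, WT, miR-146a-/- and DKO (90.4%, 81.8%, 86.7% and 83.0% without thinning). The thinned shares had the order of the levels. For Ccl9 they were 26.0%, 25.3%, 35.6% and 29.1% (65.8%, 62.1%, 81.9% and 76.9% without thinning). Thinning kept 73 of 73, 253 of 264, 357 of 376 and 533 of 536 cells. In B cells the thinned Ccl6 shares were 0.0876%, 0.502%, 0.251% and 0.331%. Median depth was 12183, 12128, 18406 and 18004 UMIs in classical monocytes and 5576, 6503, 6733.5 and 6177 in B cells.

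Neutrophil markers differed between the classical monocytes of the libraries. Of 9 markers, 3, 7, 8 and 9 were detected in young WT, WT, miR-146a-/- and DKO, with sums of 89.7, 149, 395 and 469 CPM. Csf3r led in young WT and WT (86.5 and 90.6) and S100a8 in miR-146a-/- and DKO (268 and 339.7), and Ly6g, Retnlg, Ngp, Camp, Ltf and Cxcr2 were at 0 in young WT. Leaving out cells with at least 10 S100a8 UMIs, chosen after seeing the data, gave 1084, 567, 576 and 307 for Ccl6 and 242, 192, 244 and 195 for Ccl9. Cells with any S100a8 UMI numbered 2, 10, 132 and 178, so most of them stayed. The part of neutrophil transcripts in these values was not tested.

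Patrolling monocytes, which survey the vessel wall, had Ccl6 lower in each successive library. It was at 678 CPM for young WT (613 to 749), 596 for WT (557 to 637), 468 for miR-146a-/- (451 to 486) and 322 for DKO (310.4 to 334). Ccl9 was at 99.1, 132, 106 and 115 and had no such order. In cDC2, Ccl6 was at 326, 207, 129 and 112 and Ccl9 at 66.0, 98.1, 92.9 and 83.4. DKO was therefore the lowest library for Ccl6 in classical monocytes, patrolling monocytes and cDC2, with the cDC2 ratio to miR-146a-/- at -0.20 (-0.40 to 0.00). Neutrophil markers summed to 85.2, 190.4, 111 and 157 in patrolling monocytes, with 1, 5, 8 and 9 of 9 detected, Csf3r leading and S100a8 and S100a9 at 0 in young WT. In cDC2 they summed to 4.66, 23.9, 16.1 and 14.3, with 2, 6, 5 and 6 detected and Csf3r or S100a9 leading. Kupffer cell markers in cDC2 summed to 28.7, 17.1, 79.5 and 69.4, with 4, 6, 4 and 5 of 6 detected, Adgre1 leading in young WT and WT and Timd4 in miR-146a-/- and DKO. The part of these markers in the Ccl6 and Ccl9 values was not tested.

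The balance within the pair moved with the libraries. Ccl6 made up 81.7% (79.5 to 83.8) of the UMIs of Ccl6 and Ccl9 in classical monocytes from young WT, 74.6% (72.8 to 76.3) from WT, 70.3% (69.1 to 71.5) from miR-146a-/- mice and 62.3% (61.0 to 63.7) from DKO. No interval overlapped another. In patrolling monocytes the shares were 87.2%, 81.9%, 81.6% and 73.7%, and in cDC2 they were 83.2%, 67.8%, 58.1% and 57.3%. Young WT was highest and DKO lowest in the 3 classes, although neighbouring libraries overlapped in some. These shares are of UMIs, without a correction for transcript length. Ccl9 was seen in 30.9%, 33.6%, 39.6% and 33.2% of thinned classical monocytes with Ccl6 and in 11.1%, 15.5%, 30.6% and 26.3% of those without it.

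**Figure D5:**
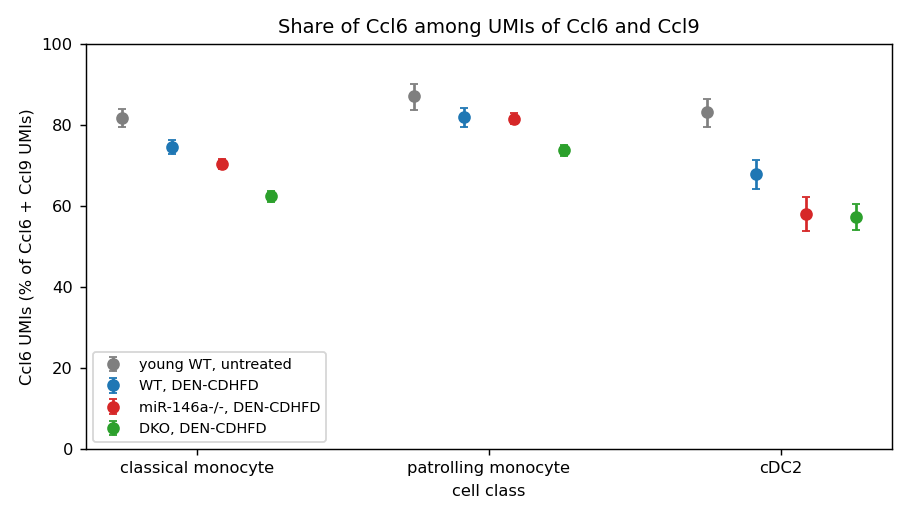
Ccl6 UMIs as a percent of Ccl6 and Ccl9 UMIs in classical monocytes, patrolling monocytes and cDC2, 1 point per library with exact 95% binomial intervals. In classical monocytes the share goes from 81.7% in young WT to 62.3% in DKO.

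Ccl3 and Ccl4 were also counted in classical monocytes. Ccl3 was at 79.0, 179.9, 47.0 and 31.6 CPM in young WT, WT, miR-146a-/- and DKO. Ccl4 was at 158, 389, 85.4 and 91.8. Treated WT was highest for both. T cell markers (Cd3d, Cd3e and Cd3g, all detected) summed to 25.6, 24.0, 12.1 and 9.94 in these monocytes, with Cd3e or Cd3g the most abundant. Cells with at least 5 UMIs of these genes were left out of the class, so the gate limits these sums. Markers of lipid-associated macrophages summed to 109, 495, 286 and 451, with 2, 4, 4 and 4 of 4 detected, Gpnmb and Spp1 at 0 in young WT and Spp1 leading in WT at 182. Of the 11 markers of cells outside the sort, 6, 8, 7 and 10 were detected, with sums of 37.4, 460.0, 9.99 and 95.5, Hbb-bs leading in WT at 285 and at 0 in young WT. The part of these 3 lists in the values of the 4 chemokine genes in classical monocytes was not tested. From young WT to WT, 2 of 4 members tested in classical monocytes were over 2-fold higher (Ccl3 1.18, Ccl4 1.30), against 2.44% of tested genes past 2-fold in either direction. From WT to miR-146a-/-, 2 of 4 were over 2-fold lower (Ccl3 -1.94, Ccl4 -2.19), against 5.28%. From miR-146a-/- to DKO, 0 of 3 were past 2-fold, against 0.368%, and Ccl3 did not pass the filter on low counts. Immediate-early and heat shock genes had 6 of 12 tested over 2-fold lower from WT to miR-146a-/-, with a median of -1.03 and sums of 13147, 12110.5, 6517 and 7104.

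Cells with markers of T and B cells, of B and NK cells, or of lymphocytes and myeloid cells were left out of the classes. T cells with NK markers, and cells with markers of several myeloid groups, were not left out. The cells left out for mixed lineage carried much of the myeloid pair. Of all Ccl6 UMIs of the kept cells, 41.4%, 53.5%, 28.7% and 22.8% lay in such cells in young WT, WT, miR-146a-/- and DKO, and of Ccl9 UMIs 43.7%, 54.7%, 31.3% and 24.3%. For Ccl3 the percentages were 6.65%, 20.03%, 9.10% and 12.8%, and for Ccl4 6.94%, 18.9%, 8.75% and 12.3%. Cells with both T cell and phagocyte markers made up 3.31%, 11.6%, 8.64% and 8.25% of the kept cells. Over all kept cells, which differ in class composition, Ccl6 was at 60.3, 145, 145 and 117 CPM and Ccl9 at 12.2, 47.7, 54.6 and 56.8, so pooled levels ran against those of classical monocytes between young WT and WT.

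Ccr1, the gene of a receptor through which CCL3, CCL6 and CCL9 signal, was at 37.4, 25.3, 21.3 and 28.4 CPM in classical monocytes of young WT, WT, miR-146a-/- and DKO. The receptor genes Ccr3 and Ackr2, the latter a scavenger of chemokines, were counted at most 3 times per library in that class.

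Of 6 other CC chemokine genes of chromosome 11, none passed the filter in NK cells. In PD-1+ CD4+ T cells Ccl1, a CCR8 ligand, was at 18.6, 11.1, 176 and 3.08 CPM, so that it was high in miR-146a-/- only of the 4 libraries and did not share the high DKO value of Ccl3 and Ccl4. Ccl2, a CCR2 ligand for monocytes, was at 55.5, 42.5, 18.9 and 13.8 in classical monocytes. The cytokine list in NK cells (Xcl1, Ifng, Tnf, Csf1, Csf2) summed to 1066, 1428, 1295 and 1054, with Xcl1 leading at 629.5, 1044, 1018 and 847. Within it, Ifng had the order of Ccl3 and Ccl4, at 407, 329.9, 172 and 155. From miR-146a-/- to DKO, 3 of its 5 genes were tested and none was past 2-fold, with a median of -0.27.

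Likeness of pattern was measured over the means of 16 classes, as Pearson's r of log2 levels with 10 added, among 5556 genes. Ccl3 and Ccl4 had r = 0.93 with each other, and Ccl6 and Ccl9 had 0.97. Across the pairs, r was -0.12 for Ccl3 and Ccl6 and -0.12 for Ccl4 and Ccl9. With Ccl5, r was 0.74 for Ccl3 and 0.67 for Ccl4. Outside the 4 genes and the gate markers, Ccl3 was most like Selenon (0.93), Zmat5 (0.89) and Tm9sf3 (0.88), and Ccl4 was most like Commd2 (0.95) and Dhrs7 (0.92). Ccl6 was most like Mmp14 (0.99), a membrane-bound matrix metalloproteinase, Lrp1 (0.99), an endocytic receptor, and Ptpro (0.99), a receptor tyrosine phosphatase. Ccl9 was most like Gm9733 (0.99), Clec4n (0.99), a C-type lectin receptor for fungi, and Sirpb1c (0.99). Classes share libraries and broad lineage, so these are descriptions of pattern.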

How the data were processed

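The authors deposited 4 matrices in units of count, raw UMIs made with Cell Ranger 7.0.1 on mm10, and these deposited counts were read without rescaling. Cells with 600 to 6000 detected genes and at most 5% mitochondrial UMIs were kept. No doublet caller or correction for ambient RNA was run. Cells with the mixed lineage markers named above were only set aside (3529 cells), and 3879 cells fitted no class. Levels are summed UMIs scaled to CPM with exact Poisson 95% intervals. Log2 ratios add 0.5 UMIs to each library and carry conditional exact counting intervals. Shares were taken after thinning each cell to 2000 UMIs (seed 1). No paired analysis was possible because each group was 1 library. The members and marker lists were chosen with earlier results of these data known. Gate minimums, the split of CD4+ T cells by PD-1, the neutrophil condition, the motifs and the classes described were set after levels or sequences of the 4 genes had been seen. Gene coordinates are from GENCODE M21. Python 3.11.15, NumPy 2.4.6, SciPy 1.17.1, pandas 2.3.3, matplotlib 3.10.9, R 4.3.3 and edgeR 4.0.16 were used.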

Additional observations from a re-analysis of the deposited data

How the results depend on the processing

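The 12 log2 ratios of Ccl3 and Ccl4 in NK cells and of Ccl6 and Ccl9 in classical monocytes were recomputed under other settings, and 68 of 84 alternative values lay inside the counting interval. TMM scaling, leaving Ccl5 out of the totals, a limit of 10% mitochondrial UMIs and gate minimums raised by 1 UMI kept all 12 inside. In NK cells, removing a cell for any UMI of another lineage's markers gave -0.48 for Ccl3 and -0.51 for Ccl4 from young WT to WT, -0.43 for Ccl3 from WT to miR-146a-/- and -0.95 for Ccl4 from miR-146a-/- to DKO. Taking the mean over NK cells gave -0.50, -0.44 and -0.44 for Ccl3 and -0.39, -0.54 and -0.73 for Ccl4 over the 3 comparisons. Gating on cells thinned to 2000 UMIs gave -0.38 for Ccl3 from young WT to WT and -0.28 for Ccl4 from WT to miR-146a-/-. In classical monocytes, that gate gave -0.46 for Ccl6 and 0.0907 for Ccl9 from young WT to WT, the latter opposite in sign to -0.32, and -0.75 for Ccl6 from miR-146a-/- to DKO, where the mean over cells also gave -0.75. Without thinning, shares in young WT, WT, miR-146a-/- and DKO were 82.4%, 76.0%, 73.8% and 51.5% for Ccl3 and 84.9%, 79.1%, 83.3% and 50.6% for Ccl4 in NK cells, and 90.4%, 81.8%, 86.7% and 83.0% for Ccl6 and 65.8%, 62.1%, 81.9% and 76.9% for Ccl9 in classical monocytes. Thinned to 1000 UMIs, they were 55.9%, 44.6%, 33.8% and 26.9% for Ccl3, 66.4%, 58.7%, 54.9% and 29.7% for Ccl4, 54.8%, 37.1%, 34.3% and 24.4% for Ccl6 and 19.2%, 17.05%, 20.2% and 15.1% for Ccl9. Without the filter on low counts, the genes past 2-fold over the 3 comparisons were 20.7%, 26.1% and 24.2% in PD-1+ CD8+ T cells, 22.96%, 21.5% and 25.6% in PD-1+ CD4+ T cells, 24.3%, 24.6% and 20.8% in NK cells, 19.7%, 24.6% and 22.7% in classical monocytes and 18.5%, 19.5% and 22.6% in pDC. For 30 other ratios, 159 of 222 alternative values lay inside the interval. Over all 42 ratios, 8 alternative values fell on the other side of 2-fold. They were Ccl6 in classical monocytes from young WT to WT (-1.04 with strict lineage removal), Ccl3 in PD-1+ CD4+ T cells from young WT to WT (0.78 with strict removal, 0.64 as a mean over cells and 0.56 with PD-1+ and PD-1- CD4+ T cells merged), Ccl4 in that comparison (1.84 with raised minimums, 2.66 on thinned cells and 1.18 without the top cell) and Ccl3 in pDC from miR-146a-/- to DKO (1.83 with strict removal). From WT to miR-146a-/-, PD-1+ CD4+ T cells gave 2.70 to 3.80 for Ccl3 and 2.96 to 4.28 for Ccl4. Merging these CD4+ T cells, leaving out the top cell and leaving out S100a8-rich monocytes were chosen after seeing the data.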

Other observations

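Late neutrophils numbered 20, 21, 18 and 33 in young WT, WT, miR-146a-/- and DKO, too few for the comparisons above. Their Ccl6 stood at 3709, 2052, 1239.6 and 616 CPM (282, 184, 261 and 222 UMIs), and their Ccl9 at 13.2, 11.2, 138 and 108. The cause of that order was not tested. Basophils were found in 2 libraries only, as 1 cell in young WT and 3 in WT. The young WT cell held 106 Ccl3, 33 Ccl4, 92 Ccl6 and 11 Ccl9 UMIs, and the WT cells together held 73, 208, 151 and 11. In NK cells Ccl9 was at 8.50, 6.00, 10.4 and 0.363 CPM (54, 33, 44 and 2 UMIs), a low level that was lowest in DKO. The limits of these data are 1 library per group, an unstated number of mice per library, age and treatment changing together between the WT groups, and classes that rest on few marker UMIs. Ambient RNA and undetected doublets may add transcripts to any class, and Ccl6 and Ccl9 had a large part of their UMIs in cells of mixed lineage. The C1q-high macrophages of young WT, at 30 cells, were not compared.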
